A study of Mus musculus with 4 samples.

Results

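The interferon-stimulated genes and nucleic acid sensors examined here were 38 genes of the 55335 genes in the counts, picked by their symbol and covering transcription factors, sensors of foreign or misplaced RNA and DNA, and antiviral effectors. The RNA came from mouse ESCs of the AB2.2 line. All cultures shared a layer of mouse embryonic fibroblast (MEF) feeders and a medium with serum, leukemia inhibitory factor, CHIR99021 and PD0325901. There were 2 control libraries and 2 libraries from cells given 50 mM lactate for 24 h, and nothing else differed between the groups by their labels. Reads on genes numbered from 18067562 to 19077885 per library. Levels are given as CPM, read counts scaled to a common library size with TMM factors, where 1 CPM stood for 17.3 to 19.7 reads. The labels do not say that the 2 libraries of a group came from separate cultures, so p-values measure only the spread between these samples, which may be technical.

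In most cells, sensors such as RIG-I and MDA5 bind viral RNA and, through the adaptor MAVS and the kinase TBK1, activate the factors IRF3 and IRF7, which turn on interferon genes. Secreted interferon then acts on its receptor, and the Janus kinases JAK1 and TYK2 activate a complex, with STAT2 and IRF9 among its parts, that binds the interferon-stimulated response element (ISRE) of many genes. Pluripotent cells are known for a weak version of this response, and fibroblasts for a strong one.

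Most genes of this group had lower levels with lactate than in control. Over all 38 genes, both lactate libraries lay under both control libraries in 32, over them in 1 (Mx1), and the groups overlapped in 5 (Adar, Herc6, Ifi44, Irf3 and Rsad2). Among all genes with a read, 19.2% lay lower without overlap in this way. Of the 38 genes, 34 passed edgeR's filter on low counts, and 33 of these had a log2 fold change below 0, as did 49% of all tested genes, with a range from −2.52 for Rtp4 to 0.074 for Irf3. Their median was −0.72, against 0.010 over the 18661 genes tested. Because the filter lets a gene pass on its control reads alone, the genes with a mean of at least 20 reads over all 4 libraries were also counted, and 28 of 31 were lower without overlap, where 26.9% of all genes at that level were. In RNA from whole cultures, fewer cells of a type and less RNA per cell cannot be told apart.

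Usp18 was the only gene of the group called by edgeR's quasi-likelihood test (TMM factors, low counts filtered out, replicate number not in the model), by the criteria of adjusted p under 0.05 and a difference beyond 2-fold. In the same fit 0.348% of all genes were called lower. No tested member was called higher, none had an unadjusted p-value under 0.05 in that direction, and DESeq2 called none higher either. In edgeR 0.552% of all genes were called higher. Mx1 did not pass the filter and had no adjusted p-value in DESeq2, so neither fit could call it. By edgeR without the filter, 1 member was higher and 27 lower at an unadjusted p-value under 0.05. Of all 32923 genes in that fit, 2533 were higher and 3018 lower. Without adjustment, 23 of the 34 members were lower at p under 0.05 in edgeR, where 11.4% of all genes were. At an adjusted p-value under 0.10, a threshold chosen after the values were seen, 16 members were lower and 0 higher, against 3.89% and 3.78% of all genes. A decrease beyond 2-fold, read without a test, was seen in 12 members and in 2.18% of all genes. The number of members called lower rested on the libraries and the model used. It was 2 without control replicate 1, 5 without control replicate 2, 6 without lactate replicate 1 and 10 without lactate replicate 2, and Usp18 was among them each time. In those fits 0.199%, 0.758%, 1.39% and 1.9% of all genes were called lower. DESeq2 called 5 members lower, namely Irf7, Isg15, Rtp4, Usp18 and Xaf1, and 0.51% of all genes. By edgeR without the filter it was 10 members and 0.987% of all genes, and with a replicate block 12 members and 2.12%.

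**Figure D1:**
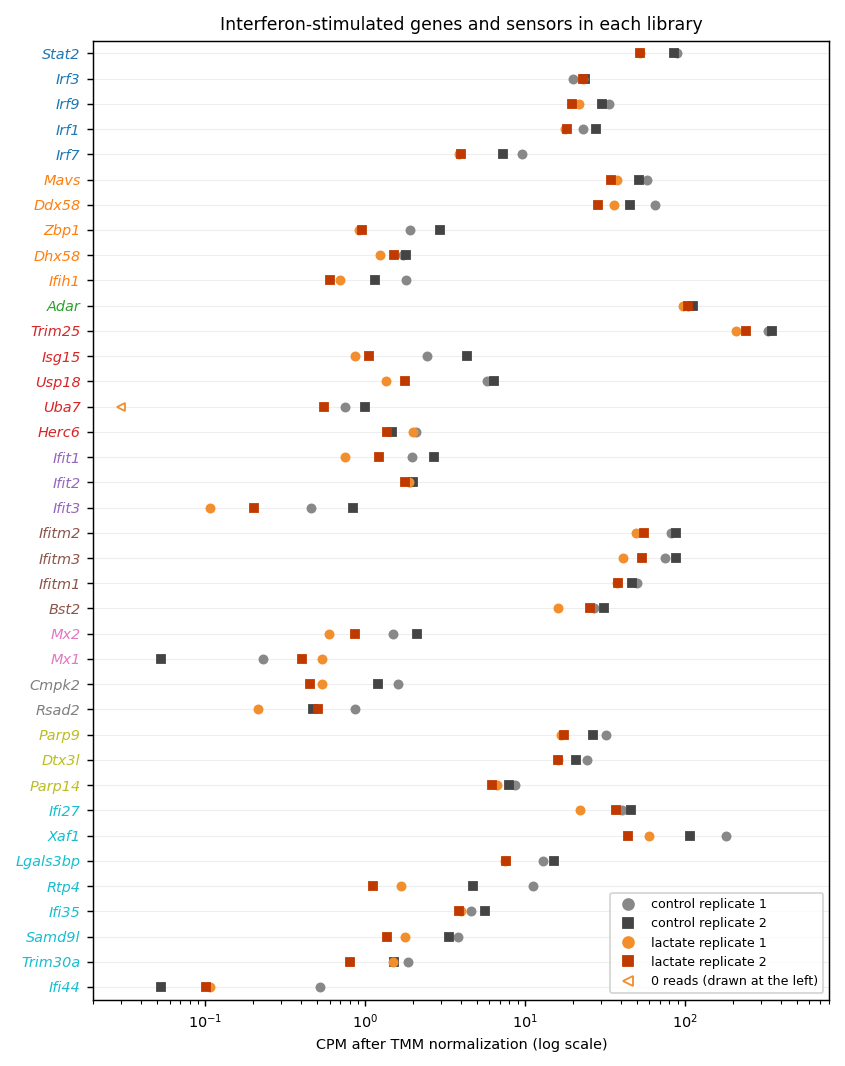
CPM (log scale) of the 38 genes in each of the 4 libraries, with gene names coloured by role and 1 point per library. Control libraries are grey and lactate libraries orange, and the orange points lie left of both grey points in 32 rows, with Mx1 the reverse.

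Promoters of these genes are shown here because binding of the complex with STAT2 and IRF9 to the ISRE is what defines many of them. RefSeq windows on GRCm38.p6, from 250 bases before to 50 bases after the annotated start, were at hand for 29 of the 38 genes. Dhx58, Ifi27, Mx1, Mx2, Parp14, Parp9, Rtp4, Usp18 and Zbp1 had none. The ISRE core was searched on both strands as GAAA, any 2 bases and GAAA, and matches may overlap each other. It was present in 11 of the 29 genes (37.9%) and in 3.99% of all genes with a window, or 3.44% of all windows. The windows of 6 of these genes follow, 5′ to 3′ on the strand of the gene, with core matches in capitals. A match on the other strand reads as TTTC, any 2 bases and TTTC.
Isg15, chr4:156200769-156201068, minus strand: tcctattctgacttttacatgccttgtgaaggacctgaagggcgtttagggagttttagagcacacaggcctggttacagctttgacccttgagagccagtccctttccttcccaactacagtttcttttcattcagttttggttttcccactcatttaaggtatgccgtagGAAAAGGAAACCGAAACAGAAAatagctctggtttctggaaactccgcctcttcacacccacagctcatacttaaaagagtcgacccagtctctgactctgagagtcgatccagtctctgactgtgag
Ifit1, chr19:34640639-34640938, plus strand: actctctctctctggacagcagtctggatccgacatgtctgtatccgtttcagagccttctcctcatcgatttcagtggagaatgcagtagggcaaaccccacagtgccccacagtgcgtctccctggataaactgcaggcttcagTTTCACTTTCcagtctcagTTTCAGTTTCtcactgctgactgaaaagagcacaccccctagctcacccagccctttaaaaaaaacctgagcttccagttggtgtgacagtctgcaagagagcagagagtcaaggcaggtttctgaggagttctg
Ifitm3, chr7:141010695-141010994, minus strand: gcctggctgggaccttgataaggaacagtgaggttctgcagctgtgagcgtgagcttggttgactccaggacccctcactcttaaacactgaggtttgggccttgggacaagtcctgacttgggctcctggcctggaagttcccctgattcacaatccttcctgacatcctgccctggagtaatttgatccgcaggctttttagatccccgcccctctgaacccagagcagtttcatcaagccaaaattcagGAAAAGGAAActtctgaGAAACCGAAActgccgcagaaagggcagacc
Ddx58, chr4:40239776-40240075, minus strand: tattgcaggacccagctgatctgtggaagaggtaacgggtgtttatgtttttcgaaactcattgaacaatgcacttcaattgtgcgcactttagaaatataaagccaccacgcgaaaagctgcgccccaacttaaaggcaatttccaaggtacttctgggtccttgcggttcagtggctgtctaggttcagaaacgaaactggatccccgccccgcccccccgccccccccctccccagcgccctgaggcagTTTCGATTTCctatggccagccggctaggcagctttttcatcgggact
Ifih1, chr2:62646206-62646505, minus strand: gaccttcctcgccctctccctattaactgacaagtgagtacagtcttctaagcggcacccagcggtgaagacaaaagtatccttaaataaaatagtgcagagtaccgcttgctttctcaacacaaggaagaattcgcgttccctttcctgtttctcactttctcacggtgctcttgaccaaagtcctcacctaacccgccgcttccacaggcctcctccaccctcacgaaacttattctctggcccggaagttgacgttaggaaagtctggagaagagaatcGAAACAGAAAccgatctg
Stat2, chr10:128270248-128270547, plus strand: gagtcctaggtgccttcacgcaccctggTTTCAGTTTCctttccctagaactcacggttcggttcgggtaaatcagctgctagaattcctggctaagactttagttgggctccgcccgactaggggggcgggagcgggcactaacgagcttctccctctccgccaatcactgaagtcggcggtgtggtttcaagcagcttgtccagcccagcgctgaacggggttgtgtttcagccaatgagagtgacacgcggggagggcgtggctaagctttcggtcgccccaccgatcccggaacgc
Isg15 held 3 overlapping matches that began at bases 173, 179 and 185 of its window, counted from 1 at the 5′ end. Ifit1 held 2 on the opposite strand at bases 147 and 166, and Ifitm3 held 2 at bases 253 and 270, just after the annotated start. Ddx58, Ifih1 and Stat2 held 1 each, at bases 253, 283 and 29. A match is a description of the letters and not a bound site.

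Outside the group, the 420 tested genes with an ISRE core match had a median log2 fold change of 0.031, and 22.9% of them were lower without overlap. Of all 12078 tested genes with a window, 26.7% were lower in this way. By the edgeR call, 5 of the 420 genes were lower and 3 higher, against 34 lower and 71 higher of the 11649 tested genes with no match. Within the group, 9 tested members with a core match had a median of −0.77 and 17 with a window but no match had −0.59, and these medians were not tested against each other. Xaf1 and Irf7, with log2 fold changes of −1.46 and −1.11, are among those with a window and no match.

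Among the transcription factors, Stat2 and Irf9, partners in the factor that binds the ISRE, and Irf7, the factor that amplifies interferon production, had lower mean levels with lactate. Stat2 (chromosome 10, 128270559 to 128292849, GRCm38) stood at 89.6 and 85.0 CPM in the control libraries and at 52.3 and 52.0 in the lactate libraries. The libraries of each group were close together and the groups far apart, by −0.74 in log2 units (standard error 0.12, adjusted p = 0.0526, edgeR). Irf9 measured 33.5 and 30.2 CPM in control and 21.7 and 19.8 with lactate, without overlap (−0.62, standard error 0.15, adjusted p = 0.0929, edgeR). Exons of Irf9 overlap those of Rnf31 on the same strand, so reads there could belong to either gene.

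Irf7 on chromosome 7 measured 9.60 and 7.27 CPM in control and 3.87 and 3.95 with lactate, the largest difference of the 5 factors (−1.11, standard error 0.22, adjusted p = 0.0656, edgeR). Both lactate libraries held less than either control library. Irf1, which responds to interferon gamma, measured 23.1 and 27.8 CPM in control and 17.9 and 18.3 with lactate (−0.49, standard error 0.17, adjusted p = 0.156, edgeR). Irf3 is made constitutively and waits for activation by TBK1. It measured 20.01 and 23.8 CPM in control and 23.02 and 23.1 with lactate, so the lactate values lay between the control values. Its log2 fold change of 0.074 (standard error 0.16) turned to −0.062 without control replicate 1.

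The 5 genes for sensing each had a lower mean with lactate, without overlap, though none reached an adjusted p-value under 0.05 in the filtered edgeR fit that had no replicate term. DESeq2 put Ddx58 under that threshold, and edgeR without the filter put Ddx58, Mavs and Zbp1 under it. A replicate block in edgeR put Ddx58, Ifih1, Mavs and Zbp1 under it, though nothing in the labels pairs the libraries. In those fits 1.61%, 2.89% and 22.5% of all genes were lower at that threshold. Ddx58, which encodes RIG-I, the sensor of short RNA with a triphosphate end, measured 64.8 and 45.3 CPM in control and 35.9 and 28.5 with lactate. The control libraries stood apart by nearly as much as the groups did, and the difference, −0.77 in log2 units (standard error 0.22, adjusted p = 0.115, edgeR), ranged from −1.02 to −0.51 as each library was left out. Mavs, the mitochondrial adaptor used by both RNA sensors, was steadier, with 57.8 and 51.6 CPM in control and 37.6 and 34.7 with lactate (−0.60, standard error 0.14, adjusted p = 0.0817, edgeR).

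The sensor genes with low levels had few reads. Ifih1, which encodes MDA5, the sensor of long double-stranded RNA, had 31 and 22 reads in control and 13 and 12 with lactate (−1.16, standard error 0.36, adjusted p = 0.137, edgeR). Zbp1, which encodes a sensor of Z-form nucleic acid that can trigger cell death, had 33 and 56 reads in control and 17 and 19 with lactate (−1.37, standard error 0.33, adjusted p = 0.0873, edgeR). Dhx58, which encodes LGP2, a regulator of the RNA sensors, had 30 and 34 reads in control and 23 and 30 with lactate. The Dhx58 libraries of the 2 groups nearly met, at −0.35 with a standard error of 0.27, and an antisense gene overlaps its exons.

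Adar, whose enzyme edits adenosines in double-stranded RNA and keeps self RNA from being sensed, had closer values in the 2 groups. It measured 103.9 and 112.1 CPM in control and 96.9 and 103.9 with lactate. The ranges met, and the log2 fold change was −0.10 with a standard error of 0.13 (adjusted p = 0.684, edgeR).

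The system that attaches the ubiquitin-like protein ISG15 to other proteins held the gene that passed the test. Usp18 on chromosome 6 (121245906 to 121270917) removes ISG15 and also blocks signalling at the type I interferon receptor. It fell from 5.78 and 6.43 CPM in the control libraries to 1.34 and 1.77 in the lactate libraries, or from 100 and 122 reads to 25 and 35. Both lactate libraries lay far under both control libraries, a 3.90-fold decrease (log2 fold change −1.96, standard error 0.25, adjusted p = 0.0406, edgeR), and the adjusted p-value was 0.206 with limma-trend on log2(FPKM + 1).

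Isg15 itself (chromosome 4, 156199424 to 156200818) measured 2.43 and 4.32 CPM in control and 0.861 and 1.06 with lactate. All 4 libraries had few reads, 42 and 82 against 16 and 21, and the groups did not overlap (−1.81, standard error 0.37, adjusted p = 0.0678, edgeR). Its log2 fold change was −1.33 without control replicate 2 and −2.17 without control replicate 1. Trim25, a ubiquitin ligase that modifies RIG-I and can also attach ISG15, was the member with the highest CPM, at 328.3 and 348.2 in control and 208.9 and 241.7 with lactate (−0.59, standard error 0.14, adjusted p = 0.0903, edgeR).

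The enzymes that load and attach ISG15 had few reads. Uba7, the activating enzyme, had 13 and 19 reads in control and 0 and 11 with lactate. The library at 0 made its log2 fold change of −1.60 uncertain (standard error 0.87), and it was −0.68 without lactate replicate 1. Herc6, the main ligase for ISG15 in mouse, had 36 and 28 reads in control and 37 and 27 with lactate. The groups overlapped in CPM (−0.081, standard error 0.33).

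Of the membrane factors, Ifitm2 and Ifitm3, which hinder fusion of viruses in endosomes, were among the most abundant members. Ifitm2 measured 81.7 and 87.8 CPM in control and 49.4 and 55.1 with lactate (−0.70, standard error 0.13, adjusted p = 0.0615, edgeR). Ifitm3 measured 75.5 and 87.6 CPM in control and 40.8 and 54.2 with lactate (−0.78, standard error 0.18, adjusted p = 0.0808, edgeR). Both genes lie with Ifitm1 in a cluster on chromosome 7 between 140954837 and 141010770, and the 3 are similar in sequence, so reads may have been lost or shared among them. Ifitm1, which acts more at the cell surface and marks early germ cells, had the smallest difference of the 3, from 50.4 and 46.9 CPM to 37.9 and 38.2 (−0.36, standard error 0.13, adjusted p = 0.181, edgeR).

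Bst2, which encodes tetherin, a protein that holds budding virus on the cell, measured 26.8 and 31.1 CPM in control and 16.2 and 25.5 with lactate. The lactate libraries stood further apart than the control libraries, and the log2 fold change of −0.47 (standard error 0.24) was −0.21 without lactate replicate 1 and −0.84 without lactate replicate 2. Ifi27 had the same pattern, with 40.6 and 45.7 CPM in control and 22.0 and 37.2 with lactate (−0.54, standard error 0.25).

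The effectors that act on RNA, translation or nucleotides were weakly expressed. Ifit1, which binds foreign RNA caps, had 34 and 51 reads in control and 14 and 24 with lactate (−1.23, standard error 0.35, adjusted p = 0.115, edgeR). Its neighbour Ifit2 on chromosome 19 had 33 and 38 reads in control and 35 and 35 with lactate. Its CPM values were close together, at 1.908 and 2.003 in control and 1.883 and 1.774 with lactate (−0.098, standard error 0.25). Ifit2 counts among the 32 genes lower without overlap only after scaling, since its raw reads overlapped. The same holds for Ifi27, with 702 and 868 reads in control and 409 and 733 with lactate. It also holds for Bst2, with 464 and 590 against 301 and 504, and for Dhx58, whose groups met at 30 reads. Ifit3 had 8 and 16 reads against 2 and 4 and did not pass the filter. These genes have close copies in the same cluster, and their counts are uncertain.

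Cmpk2, a mitochondrial nucleotide kinase, had 28 and 23 reads in control and 10 and 9 with lactate (−1.49, standard error 0.35, adjusted p = 0.0829, edgeR). Rsad2, the adjacent gene, encodes viperin, which makes a chain-terminating nucleotide, and had 15 and 9 reads in control and 4 and 10 with lactate, too few for the filter. The Mx genes belong to a family of dynamin-like GTPases that trap viral particles, and the annotation lists Mx2 as a polymorphic pseudogene. Mx2 had 26 and 40 reads in control and 11 and 17 with lactate (−1.31, standard error 0.35, adjusted p = 0.107, edgeR), while Mx1 went the other way on 4 and 1 reads against 10 and 8. Without the filter, adjusted p was 0.225 for Mx1 and 0.0565 for Ifit3 by edgeR.

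Parp9 and Dtx3l, whose products form a complex that adds ADP-ribose and ubiquitin, share a start region on chromosome 16 and have overlapping exons on opposite strands. Parp9 measured 32.0 and 26.7 CPM in control and 16.8 and 17.5 with lactate (−0.77, standard error 0.17, adjusted p = 0.0695, edgeR). Dtx3l measured 24.3 and 20.7 CPM in control and 16.1 in both lactate libraries (−0.49, standard error 0.16, adjusted p = 0.156, edgeR). Parp14, an ADP-ribosyltransferase beside them, measured 8.62 and 7.91 CPM in control and 6.67 and 6.23 with lactate, also without overlap (−0.36, standard error 0.19).

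Among the remaining 8 genes, Rtp4, an interferon-inducible chaperone of membrane receptors, had the largest log2 fold change of all tested members. It measured 11.3 and 4.74 CPM in control and 1.67 and 1.12 with lactate. Between the control libraries the level varied beyond 2-fold, and the difference of the groups, −2.52 in log2 units (standard error 0.48, adjusted p = 0.0606, edgeR), was −1.79 without control replicate 1 and −3.02 without control replicate 2. Xaf1, which antagonizes an inhibitor of apoptosis, behaved alike at a far higher level, with 179.5 and 107.3 CPM in control and 59.9 and 44.0 with lactate (−1.46, standard error 0.28, adjusted p = 0.0606, edgeR).

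Lgals3bp, a secreted glycoprotein that binds galectins, measured 13.0 and 15.2 CPM in control and 7.48 and 7.60 with lactate (−0.90, standard error 0.18, adjusted p = 0.0640, edgeR). Samd9l, an inhibitor of viral translation, measured 3.82 and 3.37 CPM in control and 1.78 and 1.37 with lactate (−1.19, standard error 0.26, adjusted p = 0.0722, edgeR). Both genes had clear gaps between groups. Ifi35 and Trim30a had log2 fold changes of −0.38 and −0.55, each within 2 standard errors of 0, and Ifi44 had 9 and 1 reads in control and 2 and 2 with lactate.

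**Figure D2:**
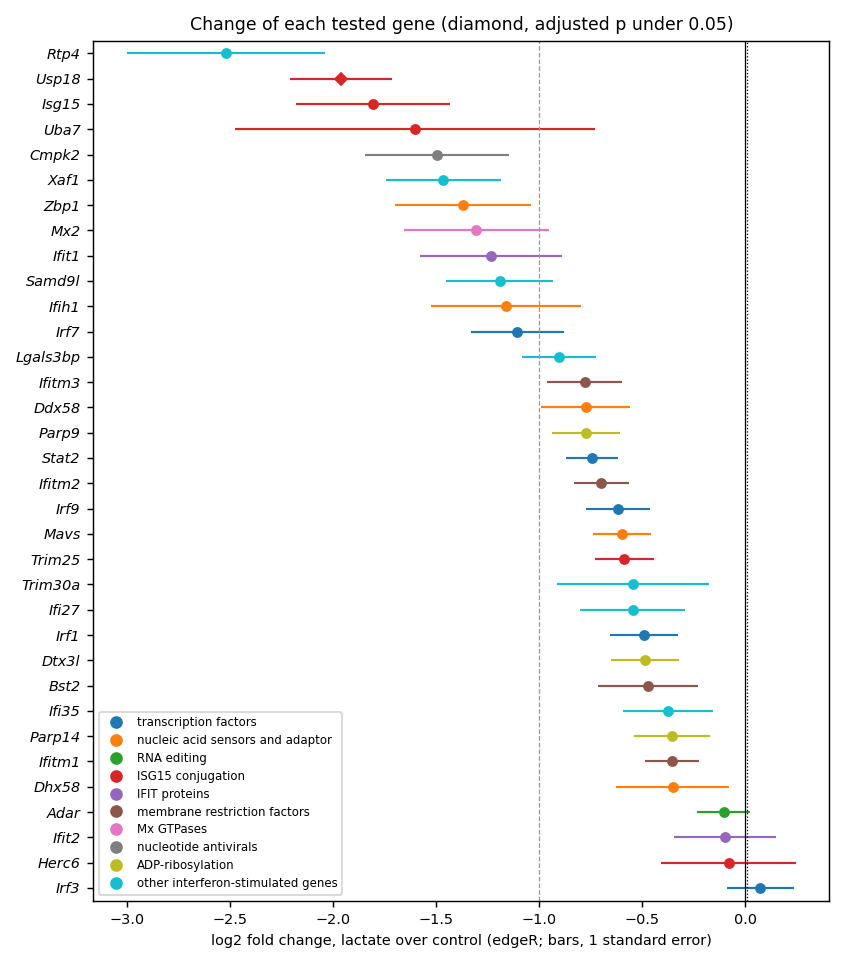
Log2 fold change of lactate over control with 1 standard error for the 34 tested genes, coloured by role, with the median of all genes as a dotted line and a halving as a dashed line. Rtp4 lies lowest at −2.52, Usp18, drawn as a diamond, is the gene with an adjusted p-value under 0.05, and Adar, Ifit2, Herc6 and Irf3 lie near 0.

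Levels per transcript length differed by over 4 orders of magnitude between members. In control cells Ifitm2 stood at 684.1 ± 36.9 TPM (SD, n = 2), followed by Ifitm3 at 326.5 ± 35.9, Ifitm1 at 226.1 ± 21.1 and Ifi27 at 113.4 ± 11.5, and the control libraries of these 4 genes did not overlap from one to the next. Xaf1, Trim25 and Bst2 followed between 81.7 and 91.6 TPM, and neighbours in that order overlapped. At the low end, Ifih1 stood at 0.490 ± 0.198, Rsad2 at 0.270 ± 0.085, Ifi44 at 0.115 ± 0.12 and Mx1 at 0.050 ± 0.028 TPM. RNA for the sensor RIG-I, at 27.85 and 19.93 TPM, exceeded RNA for MDA5 in both control libraries.

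The median log2 fold change was −0.62 over the 19 members with a control level above 10 TPM, −1.11 over 9 members between 1 and 10 TPM, and −1.23 over the 6 tested of 10 members below 1 TPM. Over all tested genes in the same ranges the medians were −0.049, 0.071 and 0.11. These medians are descriptions, and in the lowest range the filter itself favours genes with more reads in control.

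The steps above the group in the pathway were followed with lists of other genes. Of 21 interferon genes, 19 had 0 reads in all 4 libraries, Ifnb1 among them. Ifnz had 1 read in control replicate 2, and Ifnk had 3 and 2 reads with lactate. A count of 0 in a library allows up to 3 reads, so RNA of these 19 genes was not detectable at this depth, with or without lactate.

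Of 11 genes for receptors, Janus kinases and STAT partners, none was called by edgeR, and the median log2 fold change was −0.088. At an unadjusted p-value under 0.05 in edgeR, 2 were lower and 1 higher, where 11.4% of all tested genes were lower. Without overlap, 5 (45.5%) were lower and 3 higher, where 25.9% and 27% of all tested genes were. Ifnar1, a chain of the type I receptor, measured 54.6 and 50.4 CPM in control and 38.8 and 40.2 with lactate (−0.41, standard error 0.13, adjusted p = 0.142, edgeR). Its partner Ifnar2 overlapped between groups (−0.088). The kinase genes Jak1 and Tyk2 had log2 fold changes of −0.23 and −0.18, and Il10rb, a chain of the type III receptor, had the most positive value of this list at 0.57.

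The other sensors, adaptors and kinases upstream of interferon had values on both sides of 0. Of 16 tested genes, 3 were lower without overlap (18.8%) and 5 higher, with a median of −0.0048, while 25.9% of all tested genes were lower without overlap. The DNA sensor Cgas had a log2 fold change of 0.23, its partner Sting1 of −0.045, the endosomal receptor Tlr3 of 0.017 and the kinase Tbk1 of −0.027, each within 2 standard errors of 0. Ticam1, the adaptor of Tlr3, had −0.76 (standard error 0.21, adjusted p = 0.111, edgeR), Eif2ak2, the double-stranded RNA kinase PKR, had −0.53, and the DNA sensor Aim2 had 0.57. Of 11 genes that clear self nucleic acid, 3 (27.3%) were lower and 2 higher without overlap, where 25.9% and 27% of all tested genes were. At an unadjusted p-value under 0.05 in edgeR, 0 were lower and 2 higher. The farthest from 0 were Xrn1 at 0.42 and Skiv2l at −0.40.

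Negative regulators of interferon signalling had a median of −0.12 over 12 genes, with none called by edgeR. At an unadjusted p-value under 0.05 in edgeR, 2 were lower and 0 higher, where 11.4% of all tested genes were lower. Without overlap, 5 (41.7%) were lower and 1 higher, where 25.9% and 27% of all tested genes were. The feedback inhibitors of Janus kinases, Socs1 (−0.19) and Socs3 (0.11), lay within 1 standard error of 0. Ptpn6, a phosphatase, measured 22.5 and 23.2 CPM in control and 11.2 and 13.4 with lactate (−0.89, standard error 0.17, adjusted p = 0.0606, edgeR), and Pias4 had −0.39. Of the other IRF genes, Irf2bp2 had −0.71 (standard error 0.15, adjusted p = 0.0656, edgeR).

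A separate list of 36 other interferon-stimulated genes had 33 tested genes, of which 22 (66.7%) were lower and 4 higher without overlap, with a median of −0.48. Lgals9, a galectin, fell from 21.7 and 18.5 CPM to 8.07 and 8.16 and was the gene of this list called by edgeR (−1.31, standard error 0.18, adjusted p = 0.0438). Epsti1 had the most negative value at −2.85 (standard error 0.50, adjusted p = 0.0557, edgeR), on 30 and 19 reads against 3 and 4, and Apol9a had −1.84 on 17 and 14 against 4 and 5. Both genes passed the filter on low counts through their control reads alone. This list was also written with results of these libraries known.

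**Figure D3:**
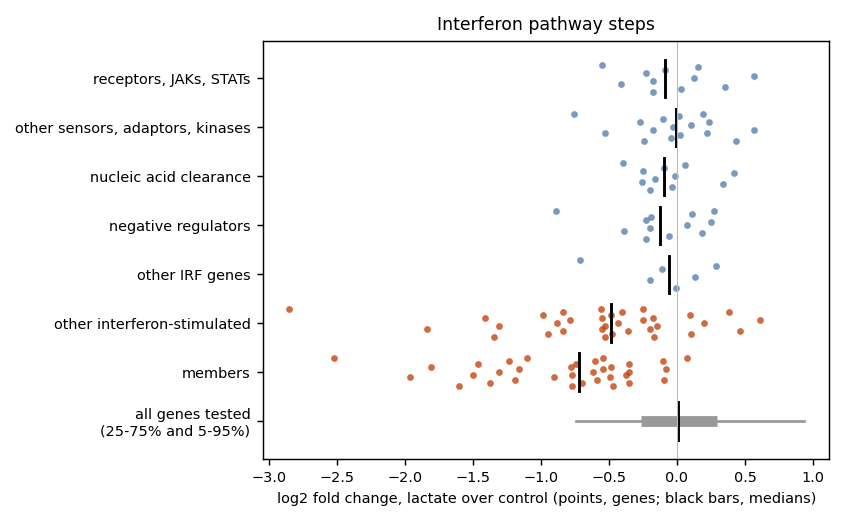
Log2 fold change of lactate over control for each tested gene (points) by step of the interferon pathway, with medians as black bars and the spread of all tested genes as grey bars at the bottom. The medians of members and of other interferon-stimulated genes lie at −0.72 and −0.48, and those of the remaining lists between −0.12 and 0.

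Markers of other cells were read beside these values, since feeder fibroblasts are in the cultures. The summed CPM of all 38 members was 1310.2 and 1251.8 in control and 792.1 and 848.1 with lactate, of which Trim25 took the largest part. The summed CPM of 20 feeder fibroblast markers was 937.7 and 1213.7 in control and 939.3 and 1021.2 with lactate, so the groups overlapped. Of the 19 tested markers, 3 (15.8%) were lower and 2 higher without overlap, where 25.9% and 27% of all tested genes were. Within the feeder list, the values farthest from 0 were −0.90 for Col3a1 and 0.99 for Pdgfra on the log2 scale. The part of feeder cells in the members' values was not tested. None of the feeder markers was called by edgeR, and 2 lower and 2 higher had an unadjusted p-value under 0.05, where 11.4% of all tested genes were lower.

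The 10 pluripotency markers summed to between 5925 and 7138 CPM, the highest of the marker lists. Of these, 4 had log2 fold changes below 0 and 6 above. Without overlap, 2 were lower and 3 higher, where 25.9% and 27% of all tested genes were. None was called by edgeR. At an unadjusted p-value under 0.05 in edgeR, 0 were lower and 3 higher, namely Sox2 (0.56), Zfp42 (0.52) and Klf4 (0.39). Fgf4 (−0.25) and Esrrb (−0.14) were lower without overlap. Pou5f1 had the most negative value of this list at −0.40. It measured 399.6 and 517.1 CPM in control and 289.7 and 403.2 with lactate, so the groups overlapped. These markers were picked for naming with the values already known. Primitive endoderm markers summed to 13.2 and 11.2 CPM in control and 20.1 and 14.8 with lactate, and all 4 that were tested lay higher without overlap, as did 27% of all tested genes, with none of them called by edgeR and 1 at an unadjusted p-value under 0.05. The 8 macrophage and leukocyte markers summed to 36.2 and 30.2 CPM in control and 35.4 and 29.8 with lactate. Ptprc and Adgre1 stayed between 0 and 2 reads per library, Cd14 between 2 and 5, and Lyz2 between 3 and 8. Cd68 ranged from 318 to 440 reads, Csf1r from 83 to 144 and Spi1 from 50 to 68, and the groups overlapped for each. By RSEM, Csf1r stood at 0 to 0.19 TPM. Itgam had 27 and 25 reads in control and 53 and 50 with lactate. It was the marker of this list that lay higher without overlap (0.90, standard error 0.26, adjusted p = 0.120, edgeR). Like Cd68, Csf1r, Spi1, Cd14 and Lyz2, it was named after its values were seen. The part of such cells in the members' values was not tested. The share of gene reads on mitochondrial genes was 5.48% and 5.72% in replicate 1 of control and lactate, and 2.43% and 2.82% in replicate 2, so the replicate numbers stood further apart than the groups.

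**Figure D4:**
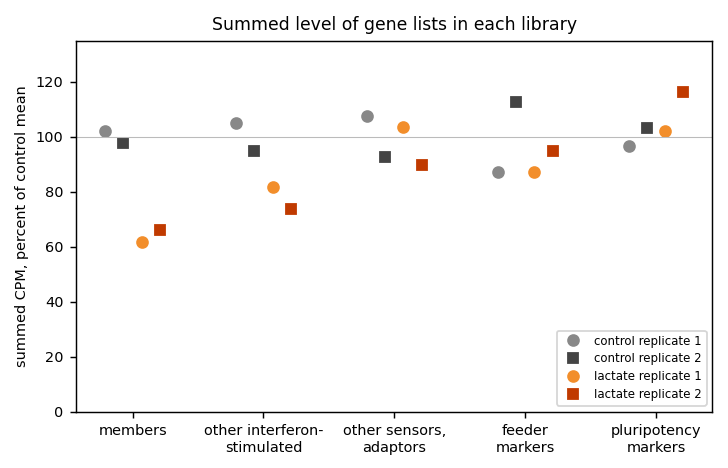
Summed CPM of gene lists in each library, as a percent of the mean of the 2 control libraries. Members and other interferon-stimulated genes lie lower in both lactate libraries than in both control libraries, while other sensors and adaptors and feeder markers overlap between the groups.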

How the data were processed

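The authors trimmed reads with cutadapt 1.16, mapped them with STAR to GENCODE M23 (mm10) and counted reads in exons, and deposited raw counts of 55335 genes and 1153 families of transposable elements. RSEM estimates deposited for each library hold expected counts, TPM and FPKM. Whether counting used strand is not given in the sources used here. Of the members, 15 share exon sequence with another gene, 6 of them with a gene on the same strand. Positions are from GENCODE M21 (GRCm38).

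Raw counts of genes were tested in R 4.3.3 with edgeR 4.0.16 (filterByExpr by condition, TMM, legacy quasi-likelihood test without a replicate term) over 18661 genes, with Benjamini-Hochberg adjustment. The call needed an adjusted p-value under 0.05 and more than 2-fold. A permutation of 2 libraries against 2 cannot give a two-sided p below 0.333. The standard error is the log2 fold change divided by the square root of F. Expected counts were rounded for their test. Alternatives were DESeq2 1.42.0, limma-trend (limma 3.58.1) on log2(FPKM + 1) and log2(FPKM + 0.1), the expected counts, other scaling factors and filters, a replicate block and each library left out. Rows of transposable elements were left out of library totals and tests. The scripts were tested on simulated data. The 2 libraries of each group were distinct, with chi-square values of 22.3 and 21.6 per degree of freedom.

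All 38 members could be named, with each library's value at least for those past 2-fold, past the test, or with a role as factor or sensor. Members and lists were chosen with earlier results of these data known. Named list genes were fixed by role, call or the 2 largest changes. Some items of these lists are not reported here.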

Additional observations from a re-analysis of the deposited data

How the results depend on the processing

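The median log2 fold change of the members stayed below 0 under each alternative, from −0.80 to −0.45, where limma-trend on log2(FPKM + 1) gave −0.46 and, over all genes with a value, −0.45. Members lower without overlap numbered from 28 to 34, with 28 over members with a mean of at least 20 reads. The number of calls moved more. DESeq2 called 190 genes higher and 168 lower, with 5 members lower and 12 at the adjusted p-value alone. Without the filter on low counts there were 482 and 325, with 10 and 19 members, and the cause was not tested. The RSEM expected counts gave 27 and 17 with 1 member, and library totals alone gave 108 higher and 40 lower, against 103 and 65 with TMM factors. Each of the 3 limma-trend fits called 0 genes and 0 members, while 18 to 21 members were lower at an unadjusted p under 0.05. An adjusted p under 0.10 gave 16 members.

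The replicate numbers are shared by both groups but nothing in the labels pairs the libraries, and there are only 2 pairs. The differences between replicates 1 and 2 correlated across genes between the groups (Pearson r = 0.638, over genes, which are not independent replicates). A replicate block in edgeR called 761 genes higher and 395 lower, with 12 members lower and 27 at the adjusted p-value alone, where 2.12% and 22.5% of all genes were lower.

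With each library left out in turn, genes called higher ranged from 45 to 502 and lower from 39 to 367, members called lower from 2 to 10, and members at the adjusted p-value alone from 2 to 16. A lone library is then assumed to vary like the other group. Directions turned only near 0. Herc6 was 0.065 with limma-trend on log2(FPKM + 1), filtered or not, 0.15 on log2(FPKM + 0.1), and from −0.40 to 0.17 with each library left out, above 0 without control replicate 1 or lactate replicate 2. Irf3 ranged from −0.062 to 0.20, below 0 without control replicate 1. Depth limits the values of members with few reads, such as Uba7, Ifih1 and Cmpk2.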
